A study of Mus musculus with 12 samples.

Results

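Solute carriers are membrane proteins that move sugars, amino acids, ions, vitamins and metals across the plasma and organelle membranes, and their gene names carry a family number, the letter a and a member number. Described here are the rows of the gene table whose symbol follows that pattern and whose mean TPM (a level per transcript length, scaled to the same total in every library) was at least 1 in at least 1 of the 4 groups. The mitochondrial family Slc25, the zinc families Slc39 and Slc30, and Slc2a1, Slc16a3 and Slc7a11 were left out. The rule kept 113 of 191 rows that match the name and of 25208 genes in the table. The genes were thus chosen by their measured TPM, and the levels below are a description with no test. Of the 113, 107 are carriers. The other 6 only share the name: the scaffolds Slc9a3r1 and Slc9a3r2, Slc4a1ap, Slc7a6os, the pseudogene Slc2a4rg-ps and the antisense gene Slc13a2os. Within Slc35 the pattern takes only members a1 to a5.

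RNA came from mpkCCDc11, an immortalised mouse line of the cortical collecting duct, labelled WT. The groups were cells given Ctnnb1-siRNA and 1 nM dDAVP, cells given Ctnnb1-siRNA and vehicle, cells given control-siRNA and dDAVP, and cells given control-siRNA and vehicle, with 3 libraries each. The protocol also names a TRIM28-siRNA, which no sample used here carries, and states a dose beside that siRNA only, so none is given for the others. Growth on permeable supports lasted 4 days in every group, then 24 h in medium with neither serum nor hormones, and then 24 h with dDAVP or vehicle at the basolateral side. Ctnnb1 encodes beta-catenin, and dDAVP activates the V2 receptor of vasopressin selectively. Since the labels leave it unsaid whether replicates were separate cultures, p-values reflect the spread of these libraries alone, and that spread may be technical. In such bulk RNA, fewer cells of a type and less RNA per cell cannot be told apart.

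In the collecting duct, principal cells reabsorb water and sodium under vasopressin, and intercalated cells move acid and base. Cells of this segment also take up organic osmolytes such as myo-inositol and taurine, which balance the high solute concentration that the kidney medulla can reach. Amino acid carriers of the heteromeric type need a heavy chain, Slc3a2 or Slc3a1, to reach the membrane, and cation-chloride cotransporters of the Slc12 family set cell chloride and volume.

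Library totals ran from 32997720 to 48935473 reads, and 16508 genes were tested. Ctnnb1 was at 335, 342 and 326 CPM (counts scaled to library size, TMM-normalised) with Ctnnb1-siRNA and dDAVP, and at 776, 811 and 786 CPM with control-siRNA and dDAVP. Small structural RNAs held 1.32% to 3.07% of reads, and their summed TPM averaged between 102409 with control-siRNA and vehicle and 143301 with Ctnnb1-siRNA and dDAVP, which shifts the TPM of every other gene. For that reason comparisons between groups use counts. Replicate 3 of the Ctnnb1-siRNA dDAVP group stood apart from its mates (chi-square per degree of freedom of 32.4 and 52.1 against them, and 10.4 between them), and the genes called with Ctnnb1-siRNA are also given without it. Among 11 principal cell markers with a row, 9 reached 1 TPM in a group, among them Avpr2 (43.7, 34.0, 42.7 and 31.9 TPM in the group order above), and Aqp2, the water channel that vasopressin induces (4.94, 0.0767, 8.63 and 0.0200 TPM), while Elf5 stayed at or below 0.0167 TPM on average. Among 4 intercalated cell markers with a row, 2 reached 1 TPM in a group. Of these markers Atp6v1b1 averaged 58.0 to 61.1 TPM, but the anion exchanger Slc4a1 was at 0 in 3 groups and at 0.0200 TPM in the other.

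The most abundant carrier was Slc38a2, a sodium-coupled carrier of small neutral amino acids, with a mean of 261 TPM over the 12 libraries and a range of 212 to 293 TPM. Slc3a2, the heavy chain of heteromeric amino acid carriers, followed with 134 TPM (114 to 157 TPM). Slc16a1, a proton-coupled lactate carrier, had 98.6 TPM and ranged from 91.4 to 109 TPM. The choline carrier Slc44a1 had 96.1 TPM, its relative Slc44a2 had 89.2 TPM, and the chloride-bicarbonate exchanger Slc4a2 had 83.5 TPM. The library ranges of these 3 overlap, yet Slc44a1 was above Slc4a2 in each of the 12 libraries, while Slc44a2 lay above and below either of them in different libraries. Slc38a2 and Slc3a2 had ranges that did not overlap. Next came Slc7a1 (65.5 TPM), a carrier of cationic amino acids, the Golgi nucleotide sugar carrier Slc35a3 (60.0 TPM), Slc38a10 (59.6 TPM), the sugar carrier Slc50a1 (56.8 TPM) and Slc44a3 (54.8 TPM), with overlapping ranges. Among the name matches the scaffold Slc9a3r1, which binds membrane proteins at the apical cortex, reached 103 TPM.

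Few genes held much of the total. The 10 most abundant carried 40.1% of the summed TPM, 66 of 113 averaged 10 TPM or more, 13 averaged 50 or more, 26 averaged under 5, and the median was 11.9 TPM. Amino acid and peptide carriers were the largest class, with 23 genes and 31.2% of the summed TPM. Vitamin and cofactor carriers, which include the Slc44 choline family, had 11 genes and 12.3%. Bicarbonate and anion exchangers had 9 genes and 5.67%, and the 6 monocarboxylate carriers had 5.42%. The summed TPM was 2547 ± 217 with Ctnnb1-siRNA and dDAVP, 2532 ± 46.0 with Ctnnb1-siRNA and vehicle, 2699 ± 174 with control-siRNA and dDAVP, and 2698 ± 110 with control-siRNA and vehicle (SD, n = 3 each).

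**Figure D1:**
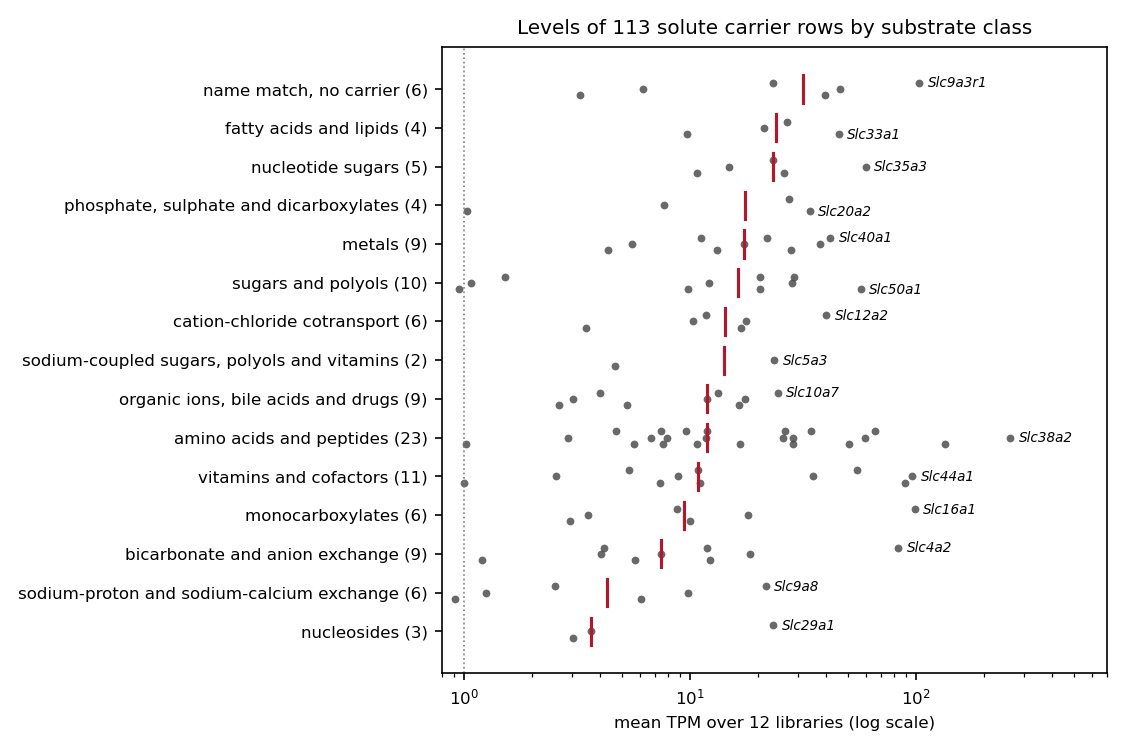
Mean TPM over 12 libraries (log axis) of each of the 113 genes, by substrate class with the number of genes in brackets; red bars are class medians, the dotted line is 1 TPM, and the highest gene of each class is named. The amino acid class spans from 1.02 TPM (Slc3a1) to 261 TPM (Slc38a2).

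At the edge of the rule, Slc8a3 (highest group mean 1.01 TPM), Slc46a3 (1.11 TPM), Slc3a1 and Slc2a6 (1.18 TPM each) were just inside. Slc28a3 (0.850 TPM), Slc9a7 (0.850 TPM) and Slc7a3 (0.847 TPM) were just outside. Of the 113, 107 met the minimum in all 4 groups, and 6 did so in some groups only: Slc17a9, Slc2a6, Slc2a9, Slc3a1, Slc46a3 and Slc8a3. All 113 also passed the separate filter on low counts and were tested.

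Carriers that define other nephron segments were near 0. The sodium-phosphate cotransporter Slc34a3 and the sodium-glucose cotransporter Slc5a2 of the proximal tubule averaged at most 0.0233 and 0.00667 TPM in any group. The sodium-chloride cotransporter Slc12a3 of the distal convoluted tubule averaged at most 0.0567 TPM. Of other carriers listed for the distal nephron, the urea carrier Slc14a2 averaged at most 0.0433 TPM. The anion exchanger Slc4a9 averaged at most 0.477 TPM, with Ctnnb1-siRNA and dDAVP. An exception among the carriers of other segments was Slc6a19, the proximal tubule carrier of neutral amino acids, at 2.78 ± 0.110, 3.53 ± 0.254, 2.41 ± 0.369 and 2.76 ± 0.342 TPM in the group order above (SD, n = 3 each). The proximal tubule receptor Lrp2 was also present, at 8.85 TPM in the lowest group.

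The first question was how dDAVP changed these genes in each siRNA background. Calls rest on edgeR's quasi-likelihood test at an adjusted p below 0.05 (Benjamini-Hochberg, over the 16508 tested genes), as do the p-values that follow. In Ctnnb1-siRNA cells dDAVP raised 4 genes, Slc5a3, Slc3a2, Slc45a3 and Slc44a4, and lowered 3, Slc12a4, Slc6a8 and the scaffold gene Slc9a3r2. Those 7 of 113 are 6.19%, against 2.78% of all tested genes and 3.13% of tested genes with the same TPM minimum (raised 2.08% and lowered 0.697% of all tested genes). With control-siRNA dDAVP raised 4 genes, Slc5a3, Slc3a2, Slc35a3 and Slc16a5, and lowered 1, Slc12a4. Those 5 of 113 are 4.42%, against 2.83% of all tested genes and 3.21% of those with the same TPM minimum (raised 1.91% and lowered 0.915% of all). Slc5a3, Slc3a2 and Slc12a4 were called in both comparisons, which share no library. So were 283 of 16508 tested genes in the same direction, and 273 of 13794 with the same TPM minimum.

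The counts depended on single libraries. With Ctnnb1-siRNA the raised count was 2 and the lowered count 1 when any 1 of the 3 vehicle libraries of that siRNA was left out; over all tested genes the raised count was then 181 to 253, against 344 with all libraries, and the lowered count 31 to 53, against 115. Without Ctnnb1-siRNA dDAVP replicate 3 the log2 changes of Slc3a2, Slc45a3, Slc44a4, Slc12a4 and Slc9a3r2 were 0.27, 0.26, 0.22, -0.30 and -0.29, all still called. Slc5a3 also kept its call without that replicate, but Slc6a8 lost it, as given below. With control-siRNA the raised count was 9 without Ctnnb1-siRNA dDAVP replicate 3. It was 2 without Ctnnb1-siRNA vehicle replicate 2 or 3 or control-siRNA vehicle replicate 3. It was 1 without control-siRNA dDAVP replicate 1 or 3 or control-siRNA vehicle replicate 1 or 2. The lowered count was 0 without control-siRNA dDAVP replicate 1 or 3. Counts over all tested genes moved too: raised genes numbered 513 without Ctnnb1-siRNA dDAVP replicate 3 and 179 to 287 without the 7 libraries that lowered the count to 2 or 1, against 316 with all libraries. On log2(TPM + 1) with limma no gene of the 113 was called raised in either comparison. Over all genes that fit called 95 raised with Ctnnb1-siRNA and 136 with control-siRNA, against 344 and 316 with edgeR.

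Slc5a3 (gene ID 53881, GRCm38 chromosome 16, 92058322 to 92087473) brings the osmolyte myo-inositol into the cell together with sodium. It had 146, 140 and 189 CPM in Ctnnb1-siRNA cells with dDAVP, against 121, 111 and 115 CPM with vehicle. In control-siRNA cells it had 166, 135 and 151 CPM with dDAVP, against 94.5, 97.7 and 101 CPM with vehicle. Every dDAVP library was above every vehicle library of its siRNA, and the highest value was that of Ctnnb1-siRNA dDAVP replicate 3. The rise was 1.37-fold with Ctnnb1-siRNA (log2 0.45, SE 0.098, adjusted p = 0.0217) and 1.54-fold with control-siRNA (log2 0.62, SE 0.099, adjusted p = 0.00261). Without the replicate that stood apart the log2 change with Ctnnb1-siRNA was 0.31 and still called. Without vehicle replicate 1, 2 or 3 of the Ctnnb1-siRNA cells the call was lost (adjusted p = 0.0622, 0.107 and 0.0686), whereas with control-siRNA it held with each library left out in turn. Slc5a3 shares 159 exonic bases on the same strand with Mrps6, a mitochondrial ribosomal protein gene, whose log2 changes of 0.42 (adjusted p = 0.116) and 0.41 (adjusted p = 0.118) were not called.

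Of the other osmolyte carriers known to be under the tonicity-responsive factor NFAT5, the taurine carrier Slc6a6 did not pass the test. It had 158, 160 and 181 CPM in Ctnnb1-siRNA cells with dDAVP, against 159, 147 and 152 CPM with vehicle. It had 181, 151 and 159 CPM in control-siRNA cells with dDAVP, against 141, 148 and 145 CPM with vehicle. The groups overlapped with Ctnnb1-siRNA and did not with control-siRNA, and the log2 values were 0.13 (adjusted p = 0.451) and 0.18 (adjusted p = 0.219). Slc38a2, which NFAT5 can also act on, had log2 values of 0.04 in both. The betaine carrier Slc6a12, below the TPM minimum, had 9, 13 and 14 reads with Ctnnb1-siRNA and dDAVP, against 15, 31 and 20 reads with vehicle, and 15, 9 and 8 reads with control-siRNA and dDAVP, against 16, 14 and 18 reads with vehicle. Its log2 values were negative, at -0.95 (adjusted p = 0.293) and -0.55 (adjusted p = 0.618), and not called. Of 5 genes of that list 4 were tested and 1, Slc5a3, was called in each dDAVP comparison, with list medians of 0.08 and 0.11 (log2) against -0.0049 and -0.0042 over all tested genes. The shares of all tested genes called were 2.78% with Ctnnb1-siRNA and 2.83% with control-siRNA. Nfat5 itself averaged 55.0 ± 15.95, 65.5 ± 8.45, 65.5 ± 17.8 and 64.9 ± 5.02 TPM in the group order above (SD, n = 3 each), and was not called.

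Slc3a2 (gene ID 17254, chromosome 19, 8706882 to 8723369) had 175, 174 and 174 CPM in Ctnnb1-siRNA cells with dDAVP, against 142, 149 and 144 CPM with vehicle. In control-siRNA cells it had 184, 180 and 172 CPM with dDAVP, against 159, 160 and 159 CPM with vehicle. All dDAVP libraries were above all vehicle libraries of both siRNAs. The change was small, at 1.20-fold with Ctnnb1-siRNA (log2 0.27, SE 0.043, adjusted p = 0.00215) and 1.12-fold with control-siRNA (log2 0.17, SE 0.043, adjusted p = 0.0492). The call with Ctnnb1-siRNA held with each library left out in turn. That with control-siRNA lay at the threshold and was lost without Ctnnb1-siRNA dDAVP replicate 1 or any 1 library of the other 3 groups (adjusted p from 0.0511 to 0.207).

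The light chains of Slc3a2 among the genes described here, Slc7a5, Slc7a6 and Slc7a7, were not called. Slc7a11, left out by the rule, was not looked at. Slc7a5, which exchanges large neutral amino acids, had 47.5, 37.8 and 43.6 CPM with Ctnnb1-siRNA and dDAVP, against 44.5, 47.4 and 40.8 CPM with vehicle. With control-siRNA it had 60.3, 47.8 and 52.2 CPM with dDAVP, against 49.4, 44.7 and 46.3 CPM with vehicle. These groups overlap, with log2 values of -0.04 (95% interval -0.24 to 0.16) and 0.19 (-0.01 to 0.39). Slc7a6, a light chain for cationic and neutral amino acids, had intervals of -0.14 to 0.08 and -0.09 to 0.13, and Slc7a7 of -0.54 to 0.06 and -0.30 to 0.30. Of the 5 heteromeric carrier genes tested, 1 was thus called in each background, with list medians of -0.04 and 0.02 (log2). Over all tested genes 2.78% were called with Ctnnb1-siRNA and 2.83% with control-siRNA. The other heavy chain, Slc3a1, was near 1 TPM and its intervals were wide (-1.35 to 0.05 and -0.84 to 0.54).

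Slc3a2 also belongs to the amino acid carriers that the stress factor ATF4 is known to induce. Of the 8 such genes listed here, all tested, it was the 1 called with dDAVP in either background. Slc7a11, left out by the rule, is not in that list. The list median was 0.04 with Ctnnb1-siRNA and 0.14 with control-siRNA (log2). For dDAVP 2.78% and 2.83% of all tested genes were called, in that order. Slc7a1, Slc1a5, Slc1a4 and Slc6a9, carriers of cationic amino acids, of glutamine, of alanine and serine, and of glycine, had log2 values of 0.14, 0.02, 0.05 and 0.14 with Ctnnb1-siRNA. With control-siRNA the same 4 had 0.15, 0.12, 0.01 and 0.18. Slc7a3, a cationic amino acid carrier below the TPM minimum, was the lowest of the list with Ctnnb1-siRNA, at -0.59 (adjusted p = 0.422), and had 0.04 (adjusted p = 0.973) with control-siRNA. Atf4 averaged 490 ± 2.68 TPM with Ctnnb1-siRNA and dDAVP, 464 ± 2.34 with Ctnnb1-siRNA and vehicle, 514 ± 11.97 with control-siRNA and dDAVP, and 513 ± 15.2 with control-siRNA and vehicle (SD, n = 3 each), and was not called.

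Slc12a4 (gene ID 20498, chromosome 8, 105943590 to 105966149), a potassium-chloride cotransporter that takes part in volume regulation, fell in both backgrounds. It had 32.4, 31.8 and 27.6 CPM in Ctnnb1-siRNA cells with dDAVP, against 40.1, 40.8 and 37.3 CPM with vehicle. It had 27.9, 31.8 and 29.1 CPM in control-siRNA cells with dDAVP, against 38.9, 37.7 and 38.0 CPM with vehicle. No dDAVP library reached the lowest vehicle library. The log2 change was -0.37 in each (SE 0.071 and 0.072, adjusted p = 0.00976 with Ctnnb1-siRNA and 0.00897 with control-siRNA), a 1.29-fold fall. The first was lost without Ctnnb1-siRNA vehicle replicate 2 (adjusted p = 0.0652), and the second without control-siRNA dDAVP replicate 1 (0.0566) or 3 (0.0622). Slc12a4 shares 361 exonic bases with Gm16156 on the opposite strand, and whether counting used the strand is not given in the sources used here.

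No other Slc12 gene reported here was called. Slc12a2, the sodium-potassium-chloride cotransporter that brings chloride in, had 137, 131 and 166 CPM with Ctnnb1-siRNA and dDAVP, against 128, 126 and 132 CPM with vehicle. Cells given control-siRNA had 138, 140 and 140 CPM with dDAVP, against 122, 129 and 129 CPM with vehicle. The groups overlap with Ctnnb1-siRNA only, and the log2 values were 0.17 (adjusted p = 0.291) and 0.14 (adjusted p = 0.387). The potassium-chloride cotransporter Slc12a7 had log2 values of -0.04 and 0.14. Of the kinases that set the activity of these cotransporters, Wnk1 and Oxsr1 were at 46.4 to 53.1 and 26.6 to 28.0 TPM by group, and neither was called.

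**Figure D2:**
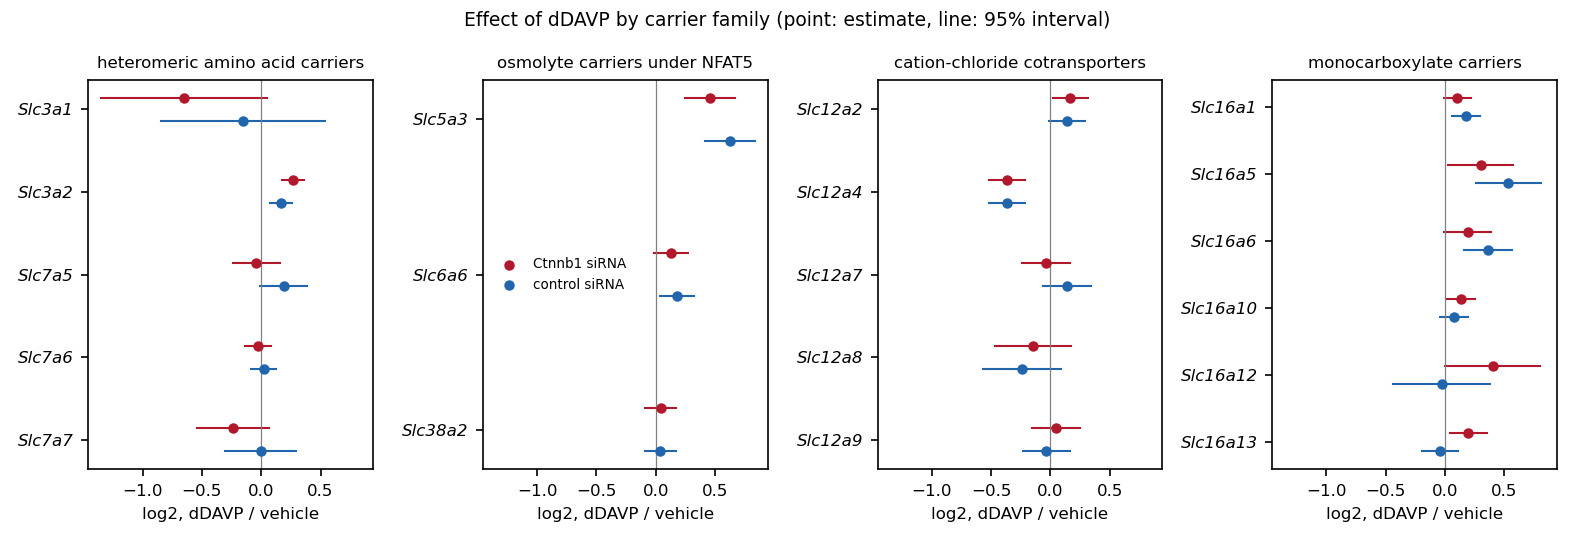
Log2 fold change of dDAVP against vehicle (x axis; point, estimate; line, 95% interval) for reported genes of 4 carrier lists, in Ctnnb1-siRNA cells (red, upper) and control-siRNA cells (blue, lower). Slc5a3 and Slc3a2 lie right of 0 and Slc12a4 left of 0 in both, while Slc7a5, Slc7a6 and Slc12a7 have intervals that include 0.

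Slc6a8 (gene ID 102857, chromosome X, 73673133 to 73682502), the creatine carrier, was lowered with Ctnnb1-siRNA. It had 13.8, 12.9 and 12.1 CPM with dDAVP, against 18.4, 16.1 and 18.0 CPM with vehicle. In control-siRNA cells it had 14.5, 13.7 and 12.4 CPM with dDAVP, against 15.4, 16.3 and 18.6 CPM with vehicle. In each background the dDAVP libraries lay below the vehicle libraries. Its log2 change was -0.43 (SE 0.093, adjusted p = 0.0180) with Ctnnb1-siRNA and -0.30 (SE 0.094, adjusted p = 0.111) with control-siRNA. The call was lost without Ctnnb1-siRNA dDAVP replicate 3 (adjusted p = 0.0525) or Ctnnb1-siRNA vehicle replicate 1 (0.0976) or 3 (0.0733).

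Slc16a5 (gene ID 217316, chromosome 11, 115462405 to 115474398), of the monocarboxylate carrier family, was called with control-siRNA. It had 15.1, 13.5 and 9.94 CPM in Ctnnb1-siRNA cells with dDAVP, against 9.70, 10.8 and 10.8 CPM with vehicle. It had 12.9, 13.2 and 14.9 CPM in control-siRNA cells with dDAVP, against 10.3, 9.15 and 8.90 CPM with vehicle. The Ctnnb1-siRNA groups overlap through replicate 3, and the control-siRNA groups do not. The log2 change was 0.30 (SE 0.128, adjusted p = 0.296) with Ctnnb1-siRNA and 0.53 (SE 0.129, adjusted p = 0.0369) with control-siRNA. The call with control-siRNA was lost without Ctnnb1-siRNA vehicle replicate 2 or 3 or any 1 control-siRNA library (adjusted p from 0.0528 to 0.168). It shares 104 exonic bases with Gm11695 on the opposite strand.

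Among the other monocarboxylate carriers, Slc16a1 had log2 values of 0.10 (adjusted p = 0.437) and 0.18 (adjusted p = 0.107). Slc16a6, a carrier of ketone bodies and taurine, had 7.09, 6.56 and 6.99 CPM with Ctnnb1-siRNA and dDAVP, against 6.00, 6.27 and 5.83 CPM with vehicle. With control-siRNA it had 7.36, 7.05 and 7.52 CPM with dDAVP, against 5.49, 5.93 and 5.68 CPM with vehicle. The groups do not overlap, yet the log2 values of 0.19 (adjusted p = 0.405) and 0.36 (adjusted p = 0.057) did not pass. Of 7 genes of that list tested, dDAVP raised 0 with Ctnnb1-siRNA and 1 with control-siRNA, with list medians of 0.20 and 0.18 (log2). Among all tested genes dDAVP raised 2.08% and 1.91%, in that order. Bsg, the chaperone that brings Slc16a1 to the membrane, was at 814 to 850 TPM by group and was not called.

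Slc45a3, Slc44a4 and Slc35a3 made up the remaining raised genes. Slc45a3 (gene ID 212980, chromosome 1, 131962915 to 131982972), placed with the sugar carriers, had 52.8, 53.0 and 57.4 CPM with Ctnnb1-siRNA and dDAVP, against 43.9, 44.8 and 44.2 CPM with vehicle. Cells given control-siRNA had 49.0, 48.7 and 49.5 CPM with dDAVP, against 44.0, 42.0 and 43.4 CPM with vehicle. The dDAVP libraries were higher throughout. The log2 change was 0.30 (SE 0.051, adjusted p = 0.00342) with Ctnnb1-siRNA, a call that held with each library left out in turn, and 0.19 (SE 0.051, adjusted p = 0.0701) with control-siRNA. It shares 481 exonic bases with Gm29103 on the same strand.

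Slc44a4 (gene ID 70129, chromosome 17, 34914224 to 34930436), a choline-like carrier of thiamine pyrophosphate, had 47.0, 47.2 and 47.4 CPM with Ctnnb1-siRNA and dDAVP, against 39.8, 40.9 and 40.7 CPM with vehicle. With control-siRNA it had 41.4, 40.3 and 43.4 CPM with dDAVP, against 37.9, 39.1 and 36.8 CPM with vehicle. The groups do not overlap in either background. Its log2 change was 0.22 (SE 0.051, adjusted p = 0.0279) and 0.14 (SE 0.052, adjusted p = 0.212). The call was lost without Ctnnb1-siRNA dDAVP replicate 1 or 2 or any 1 Ctnnb1-siRNA vehicle library (adjusted p from 0.0563 to 0.116).

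Slc35a3 (gene ID 229782, chromosome 3, 116669469 to 116712708) supplies the Golgi with UDP-N-acetylglucosamine. It had 175, 162 and 200 CPM with Ctnnb1-siRNA and dDAVP, against 156, 155 and 161 CPM with vehicle. Cells given control-siRNA had 185, 183 and 182 CPM with dDAVP, against 145, 147 and 160 CPM with vehicle. All dDAVP libraries were above the vehicle libraries of their siRNA, with replicate 3 of the Ctnnb1-siRNA dDAVP group highest. Its log2 change was 0.19 (SE 0.064, adjusted p = 0.161) with Ctnnb1-siRNA and 0.29 (SE 0.064, adjusted p = 0.0233) with control-siRNA. The call was lost when any 1 of the 3 control-siRNA dDAVP libraries was left out, or control-siRNA vehicle replicate 1 or 2 (adjusted p from 0.0502 to 0.113). It shares 275 exonic bases with Gm43191 on the same strand.

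The scaffold gene Slc9a3r2 (gene ID 65962, chromosome 17, 24639281 to 24650305), whose product tethers membrane carriers through PDZ domains, had 24.6, 22.9 and 19.8 CPM with Ctnnb1-siRNA and dDAVP, against 29.3, 28.2 and 30.0 CPM with vehicle. With control-siRNA it had 23.0, 24.9 and 22.3 CPM with dDAVP, against 25.5, 25.6 and 28.0 CPM with vehicle. Groups did not overlap. The log2 change was -0.38 (SE 0.080, adjusted p = 0.0166) and -0.17 (SE 0.081, adjusted p = 0.337). With any 1 of the 3 Ctnnb1-siRNA vehicle libraries left out the call was lost (adjusted p from 0.0519 to 0.0729). The related scaffold Slc9a3r1 had log2 values of 0.10 in both backgrounds and was not called.

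**Figure D3:**
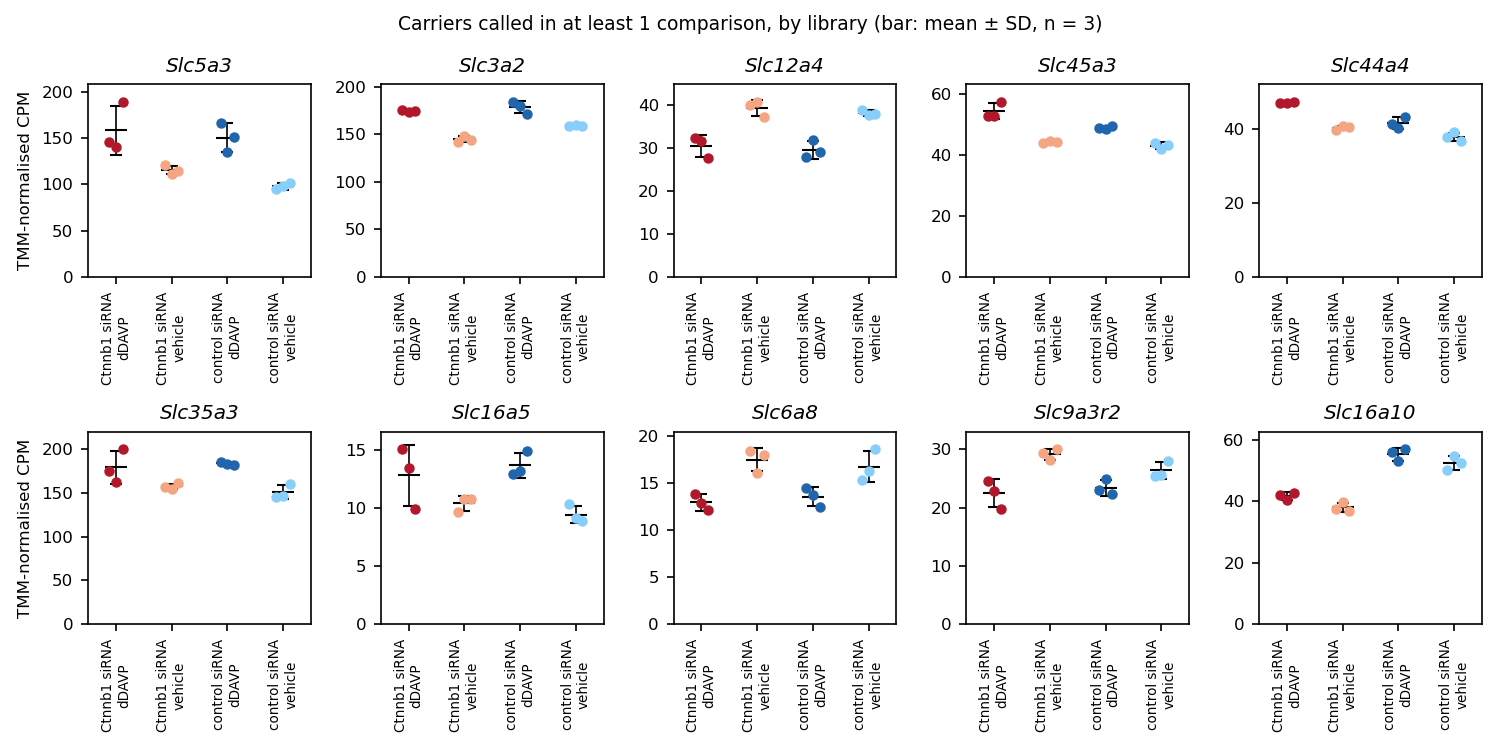
TMM-normalised CPM (y axis, from 0) of each library for the 10 genes called in at least 1 comparison, in Ctnnb1-siRNA dDAVP, Ctnnb1-siRNA vehicle, control-siRNA dDAVP and control-siRNA vehicle cells; black bars are mean ± SD (n = 3). Slc5a3 is highest in the dDAVP groups, and Slc16a10 is lower in both Ctnnb1-siRNA groups, at 36.9 to 42.7 CPM.

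The second question was what Ctnnb1-siRNA changed. No gene of the 113 rose and 1 fell in each treatment, 0.885%. With dDAVP 0.267% of all tested genes were called (raised 0.121%, lowered 0.145%), and with vehicle 0.43% (raised 0.206%, lowered 0.224%). Among tested genes with the same TPM minimum 0.312% and 0.5% were called. At an unadjusted p under 0.05, edgeR had 11 raised and 5 lowered genes with dDAVP and 6 raised and 8 lowered with vehicle. Over all tested genes these shares were 6.13% and 5.53% with dDAVP and 4.17% and 3.92% with vehicle. DESeq2 called 1 raised and 3 lowered with dDAVP and 1 raised and 2 lowered with vehicle. Over all genes it called 156 raised and 103 lowered with dDAVP, and 91 and 78 with vehicle. The lowered count with dDAVP was 2 without Ctnnb1-siRNA dDAVP replicate 3, Ctnnb1-siRNA vehicle replicate 1 or control-siRNA dDAVP replicate 2, and 0 without control-siRNA dDAVP replicate 1 or 3. Over all tested genes it was then 112, 24, 45, 5 and 7, in that order, against 24 with all libraries. The raised count with vehicle was 1 without Ctnnb1-siRNA dDAVP replicate 3. Over all tested genes that count was 98, against 34 with all libraries.

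The gene lowered in both was Slc16a10 (gene ID 72472, chromosome 10, 40033532 to 40142270), which carries aromatic amino acids across the basolateral membrane of epithelia. With dDAVP it had 42.2, 40.4 and 42.7 CPM in Ctnnb1-siRNA cells, against 55.9, 53.0 and 57.0 CPM in control-siRNA cells. With vehicle it had 37.6, 39.7 and 36.9 CPM in Ctnnb1-siRNA cells, against 50.1, 54.8 and 52.4 CPM in control-siRNA cells. All 6 Ctnnb1-siRNA libraries were below all 6 control-siRNA libraries. The fall was 1.32-fold with dDAVP (log2 -0.41, SE 0.055, adjusted p = 0.00661) and 1.38-fold with vehicle (log2 -0.46, SE 0.056, adjusted p = 0.00111). The first was lost without control-siRNA dDAVP replicate 1 (adjusted p = 0.0525) or 3 (0.0524), and the second held with each library left out in turn. On log2(TPM + 1) with limma neither was called (adjusted p = 0.197 and 0.104). The effect of dDAVP on Slc16a10 was 0.13 with Ctnnb1-siRNA and 0.08 with control-siRNA (log2), and not called.

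Nearest to the threshold among the rest was Slc36a1, a proton-coupled amino acid carrier of lysosomes. With dDAVP it had 9.82, 9.12 and 10.3 CPM in Ctnnb1-siRNA cells, against 14.2, 12.4 and 15.4 CPM in control-siRNA cells, without overlap. With vehicle it had 13.6, 11.3 and 10.6 CPM, against 11.4, 12.7 and 12.4 CPM, with overlap. The log2 values were -0.52 (adjusted p = 0.054) and -0.04 (adjusted p = 0.982).

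The effects of dDAVP in the 2 backgrounds can be set side by side, as these comparisons have no library in common. Across the 113 genes Pearson's r of the log2 changes was 0.60 and Spearman's rho 0.59, and 78 genes (69.0%) had the same sign. Over 13794 tested genes with the same TPM minimum, r was 0.48 and 61.3% had the same sign. For Ctnnb1-siRNA with dDAVP and with vehicle, r was 0.36 and 70 genes (61.9%) had the same sign, against 57.2% of those 13794 genes. These values are across genes, which are not independent replicates.

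**Figure D4:**
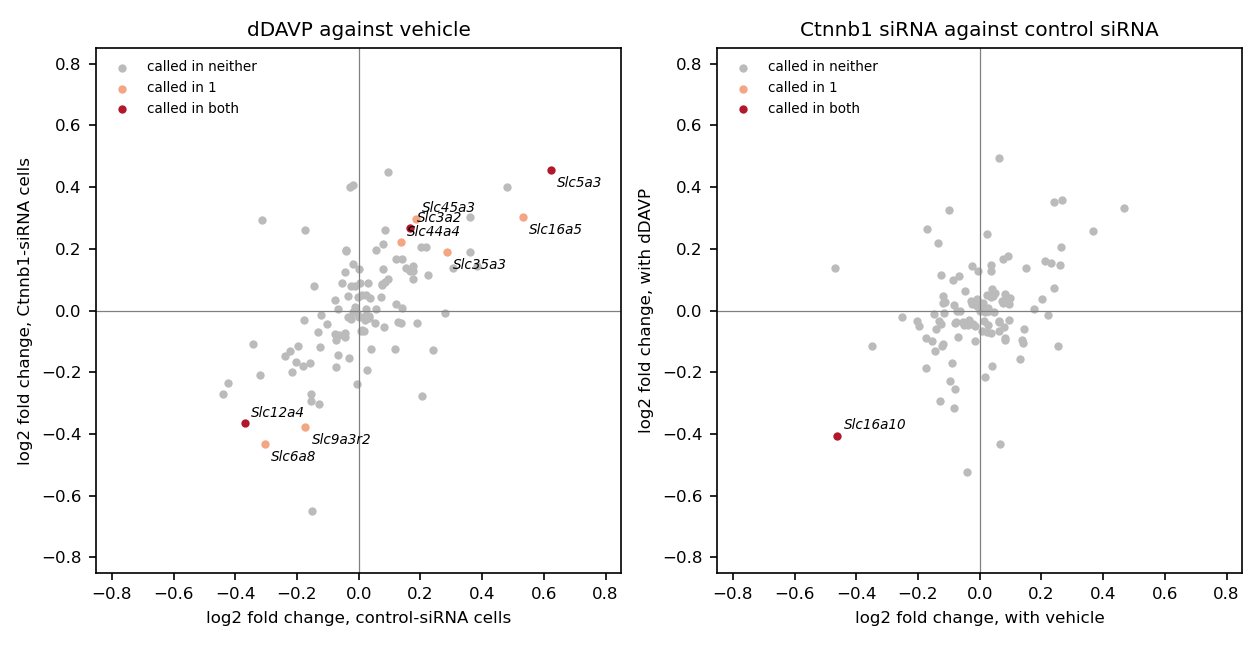
Log2 fold changes of the 113 genes: left, dDAVP against vehicle in Ctnnb1-siRNA cells (y) and control-siRNA cells (x); right, Ctnnb1-siRNA against control-siRNA with dDAVP (y) and with vehicle (x). Colours give the number of comparisons in which a gene was called. Slc5a3 is at the upper right of the left panel and Slc16a10 at the lower left of the right panel.

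Most of the 113 genes were measured closely enough to bound their change. The 95% interval of the fold change lay within 1.5-fold in either direction for 99 genes (87.6%) with dDAVP and Ctnnb1-siRNA and for 101 (89.4%) with dDAVP and control-siRNA. For Ctnnb1-siRNA it did so for 103 (91.2%) with dDAVP and 104 (92.0%) with vehicle. Among all tested genes with the same TPM minimum, these shares were 82.9%, 82.0%, 83.6% and 84.1%. Slc38a2, the most abundant carrier, had intervals of -0.09 to 0.17 for dDAVP in each background and -0.18 to 0.08 for the siRNA in each treatment (log2).

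Whether the siRNA altered the response to dDAVP was tested as an interaction. With edgeR 0 of 113 genes were called, as were 0% of all tested genes, and 4 genes (2 in each direction) had an unadjusted p under 0.05, against 2.66% (higher) and 2.36% (lower) of all tested genes. DESeq2 and limma on log2(TPM + 1) also called 0 of the 113. The smallest p-values for a more positive dDAVP effect with Ctnnb1-siRNA were those of Slc16a13, Slc2a9 and Slc50a1 (log2 0.24, 0.61 and 0.23), and for a more negative one those of Slc36a1, Slc22a15 and Slc9a3r2 (log2 -0.48, -0.37 and -0.20), with an adjusted p of 0.918 for all 6. For Slc5a3 the difference was -0.17 with a 95% interval of -0.47 to 0.13, for Slc3a2 it was 0.10 (-0.03 to 0.23), and for Slc12a4 0.00 (-0.21 to 0.22). A gene called with 1 siRNA and not with the other was thus not shown to differ between them.

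Promoter sequences of 84 of the 113 genes, and of 8 of the 10 called, were found in RefSeq (GRCm38.p6). They run from 250 bases before to 50 after a start site, which need not be the outer end of the gene. Shown are the windows of the most raised gene, of the gene lowered by Ctnnb1-siRNA, and of the 2 called genes whose window holds the TCF/LEF motif, the site of the factors that beta-catenin binds. Those 2, Slc44a4 and Slc35a3, were called for dDAVP and not for Ctnnb1-siRNA, and a role of the motif was not tested. The Slc35a3 window lies wholly inside the gene bounds given above. Most of the Slc44a4 window does too, including its motif matches. Capitals mark matches to TCF/LEF (CTTTGAT, or its reverse complement) and to the core TGACG of the cAMP response element; windows with no match are in lower case throughout. The windows are chr16:92058072-92058371 on the plus strand for Slc5a3, chr10:40142205-40142504 on the minus strand for Slc16a10, chr17:34914216-34914515 on the plus strand for Slc44a4 and chr3:116712231-116712530 on the minus strand for Slc35a3.
Slc5a3: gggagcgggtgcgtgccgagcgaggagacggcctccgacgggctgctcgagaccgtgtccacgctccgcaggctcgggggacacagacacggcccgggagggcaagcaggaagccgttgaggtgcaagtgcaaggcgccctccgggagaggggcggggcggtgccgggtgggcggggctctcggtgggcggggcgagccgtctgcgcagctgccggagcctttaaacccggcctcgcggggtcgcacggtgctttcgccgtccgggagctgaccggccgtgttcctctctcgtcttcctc
Slc16a10: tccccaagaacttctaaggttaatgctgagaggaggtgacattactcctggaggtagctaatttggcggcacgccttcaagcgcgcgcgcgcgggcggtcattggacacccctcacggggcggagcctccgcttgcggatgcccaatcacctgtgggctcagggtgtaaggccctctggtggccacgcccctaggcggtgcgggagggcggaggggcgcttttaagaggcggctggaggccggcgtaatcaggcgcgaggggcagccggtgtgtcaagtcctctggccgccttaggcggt
Slc44a4: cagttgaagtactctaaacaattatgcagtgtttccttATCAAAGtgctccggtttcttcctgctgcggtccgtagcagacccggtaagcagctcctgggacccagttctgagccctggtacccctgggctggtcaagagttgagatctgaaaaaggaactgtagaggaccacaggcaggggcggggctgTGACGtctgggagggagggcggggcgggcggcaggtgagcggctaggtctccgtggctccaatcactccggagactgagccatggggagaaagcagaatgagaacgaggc
Slc35a3: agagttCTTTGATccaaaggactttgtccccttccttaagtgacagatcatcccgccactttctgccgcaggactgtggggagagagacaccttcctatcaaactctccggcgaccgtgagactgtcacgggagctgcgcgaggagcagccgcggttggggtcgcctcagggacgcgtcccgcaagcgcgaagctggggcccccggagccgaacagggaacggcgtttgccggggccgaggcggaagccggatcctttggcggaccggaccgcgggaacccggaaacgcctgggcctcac

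Both strands were searched for 5 motifs: the cAMP response element TGACGTCA, its core TGACG, which the longer motif contains, TCF/LEF CTTTGAT, the ATF4 composite TGATGNAA and the NFAT core TGGAAA. Of all 32851 promoter windows 1.79%, 20.8%, 3.73%, 3.97% and 21.4% held them, in that order. Of the 119 windows of the genes described here the shares were 0.840%, 22.7%, 5.88%, 5.04% and 16.8%. In Slc44a4 TCF/LEF begins at base 39 and TGACG at base 191 of the window, and in Slc35a3 TCF/LEF begins at base 7. Slc45a3, whose windows are not shown, holds the NFAT core. It begins at base 153 of the window chr1:131962665-131962964 and at bases 118 and 248 of the window chr1:131970359-131970658. None of the 5 motifs is in the windows of Slc5a3, Slc3a2, Slc12a4, Slc9a3r2 and Slc16a10, which says only that these letters are not there.

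Carriers named outside the Slc pattern were followed as a list of 17, of which 9 were tested. Of these 2 were called raised in each dDAVP comparison and 0 lowered, against 2.08% and 1.91% of all tested genes raised. The list medians were 0.14 with Ctnnb1-siRNA and 0.04 with control-siRNA (log2). Slco2a1, the prostaglandin carrier, averaged 1.80 ± 0.469 TPM with Ctnnb1-siRNA and dDAVP, against 0.530 ± 0.0854 TPM with vehicle. With control-siRNA it averaged 1.97 ± 0.775 TPM with dDAVP, against 0.543 ± 0.105 TPM with vehicle (SD, n = 3 each). Its log2 changes were 1.32 (adjusted p = 0.0012) and 1.69 (adjusted p = 0.000137). Slco4a1, an organic anion carrier, had log2 changes of 0.38 (adjusted p = 0.00572) and 0.39 (adjusted p = 0.00523). Of 14 genes that regulate or escort carriers 10 were tested, and dDAVP raised 1 of them, with control-siRNA: Nedd4l, a ubiquitin ligase that removes membrane proteins, with log2 changes of 0.31 (adjusted p = 0.0697) with Ctnnb1-siRNA and 0.40 (adjusted p = 0.0195) with control-siRNA.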

How the data were processed

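Ribosome-depleted, strand-specific libraries of total RNA were made, per the labels. Per the submitters' processing notes, FastQC, Trimmomatic, HISAT2, StringTie and DESeq2 were used with GRCm38 (mm10); versions and the use of strand in counting are not given in the sources used here. The deposited table holds, per the file headers, raw read counts per gene and library, and TPM values that the authors computed. Genes were chosen by TPM. The values of 1 gene are not reported here. The genes and lists were chosen with earlier results of these data known.

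The count model was edgeR 4.0.16 (R 4.3.3): filterByExpr, TMM scaling, a robust quasi-likelihood fit of all 12 libraries with 1 coefficient per group, and Benjamini-Hochberg adjustment over 16508 genes, which held 99.968% of reads (common biological coefficient of variation 8.26%). Genes below an adjusted p of 0.05 are called. Contrasts set dDAVP against vehicle per siRNA, Ctnnb1-siRNA against control-siRNA per treatment, and their interaction. Scripts were tested on simulated data. Named are called genes (up to 12 a direction), the 3 smallest interaction p-values per direction, the 12 highest TPM, genes at the edge of the rule, and members of the lists. Alternatives were DESeq2 1.42.0, its size factors in edgeR, no filter, only the groups compared, a replicate block, limma 3.58.1 on log2(TPM + 1), and each library left out; limma on TPM rescaled without small structural RNAs was chosen after seeing the data. Exon overlaps are from GENCODE and promoters from RefSeq, both of GRCm38.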

Additional observations from a re-analysis of the deposited data

How the results depend on the processing

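None of the called genes and the 6 genes named for the interaction changed direction under the alternatives run. The all-gene median under dDAVP with control-siRNA, -0.0042, was 0.0031 with DESeq2 size factors in edgeR and 0.0026 with only the groups compared. DESeq2 called 8 genes raised by dDAVP with control-siRNA, against 4 with edgeR, and for Ctnnb1-siRNA 1 raised and 3 lowered with dDAVP and 1 raised and 2 lowered with vehicle. Over all genes DESeq2 also called more: 483 raised by dDAVP with control-siRNA against 316. For Ctnnb1-siRNA it called 156 raised and 103 lowered with dDAVP, against 20 and 24. With vehicle it called 91 raised and 78 lowered for Ctnnb1-siRNA, against 34 and 37. With limma on log2(TPM + 1) the counts were 0 raised by dDAVP in each background and 0 lowered by Ctnnb1-siRNA in each treatment. Over all genes dDAVP then raised 95 with Ctnnb1-siRNA and 136 with control-siRNA, and Ctnnb1-siRNA lowered 14 with dDAVP and 21 with vehicle. Rescaling TPM without small structural RNAs, chosen after seeing the data, gave 1 raised by dDAVP in each background and 0 lowered by Ctnnb1-siRNA in each treatment. Over all genes these counts were 151 and 195 raised, and 19 lowered in each treatment. A fit of only the groups compared gave 2 raised by dDAVP with Ctnnb1-siRNA, 0 lowered by Ctnnb1-siRNA with dDAVP, and 1 raised and 2 lowered with vehicle. Over all genes these counts were 222, 7, 150 and 105, in that order. The cause of these shifts was not tested.

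With 1 library left out, dDAVP raised 2 to 6 and lowered 1 to 3 genes with Ctnnb1-siRNA, and raised 1 to 9 and lowered 0 to 1 with control-siRNA. Ctnnb1-siRNA raised 0 to 0 and lowered 0 to 2 with dDAVP, and raised 0 to 1 and lowered 1 to 1 with vehicle. Over all tested genes dDAVP then raised 181 to 357 and lowered 31 to 149 with Ctnnb1-siRNA. With control-siRNA it raised 179 to 513 and lowered 60 to 330. Over the same genes Ctnnb1-siRNA raised 0 to 104 and lowered 5 to 112 with dDAVP, and raised 6 to 98 and lowered 11 to 83 with vehicle. The number of genes past the TPM rule was 104 to 120.

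Replicate numbers showed no clear pairing of the samples: 2 of 18 same-numbered pairs had a correlation of deviations over 0.1 (range -0.13 to 0.28), and other pairs reached 0.37. With 3 libraries per group this check cannot exclude that same-numbered libraries were handled together, which the labels leave unsaid. With the replicate block 2 genes were raised by dDAVP with control-siRNA, Slc3a2 and Slc16a5 losing the call (adjusted p = 0.0672 and 0.0577), and Slc44a4 narrowly lost its call with Ctnnb1-siRNA (adjusted p = 0.05001). Over all tested genes dDAVP then raised 280 with control-siRNA, against 316 without the block, and 318 with Ctnnb1-siRNA, against 344. For Slc3a1, near 1 TPM and with 614 reads in all, the interval of the dDAVP effect with Ctnnb1-siRNA was -1.35 to 0.05, so smaller changes were not detectable there.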

Other observations

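Of the 78 rows under the TPM minimum, 26 were tested, and dDAVP raised 2 in each background, against 2.08% and 1.91% of all tested genes raised with Ctnnb1-siRNA and control-siRNA. Slc28a3, a concentrative nucleoside carrier, had 74, 71 and 138 reads with Ctnnb1-siRNA and dDAVP, against 19, 26 and 16 reads with vehicle. Cells given control-siRNA had 63, 58 and 81 reads with dDAVP, against 14, 20 and 23 reads with vehicle. The groups do not overlap, and the log2 changes were 2.10 (SE 0.30, adjusted p = 0.000724) and 1.82 (SE 0.31, adjusted p = 0.00337), called by edgeR and in 18 and 17 of 19 alternatives. Without Ctnnb1-siRNA dDAVP replicate 3 the first was 1.76. Slc6a14, a broad amino acid carrier, had 64, 47 and 64 reads with control-siRNA and dDAVP, against 34, 15 and 23 with vehicle (log2 1.32, adjusted p = 0.0235, called in 12 of 19 alternatives). With Ctnnb1-siRNA it had 39, 50 and 47 reads with dDAVP, against 13, 34 and 28 with vehicle (log2 0.77, adjusted p = 0.242, not called). The interaction was not called for Slc6a14 (adjusted p = 0.925). Slc4a9, an anion exchanger of intercalated cells, had 38, 43 and 36 reads with Ctnnb1-siRNA and dDAVP, against 0, 7 and 0 with vehicle. It had 10, 12 and 10 reads with control-siRNA and dDAVP, against 6, 0 and 9 with vehicle. Slc4a9 passed the filter on low counts only through the Ctnnb1-siRNA dDAVP group, where it is high. Its call and its place among the 2 raised are therefore a description. The edgeR call was with Ctnnb1-siRNA (log2 3.91, adjusted p = 0.0104) and held in 17 of 19 alternatives, among them edgeR with no filter (adjusted p = 0.0121). It was lost without Ctnnb1-siRNA vehicle replicate 1 (adjusted p = 0.0692) or 3 (0.0573), and the fitted log2 value was 8.22 without vehicle replicate 2, which held the only 7 vehicle reads. With control-siRNA it was not called (adjusted p = 0.549), and the interaction was not called (adjusted p = 0.918).

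In the other lists, dDAVP with Ctnnb1-siRNA raised 1 of 12 tested bicarbonate and anion exchangers, and 0 with control-siRNA. The 1 was Slc4a9, which passed the filter only through the group where it is high. Among all tested genes dDAVP raised 2.08% with Ctnnb1-siRNA and 1.91% with control-siRNA. Of 7 sodium-proton exchangers, 5 hexose carriers and 4 phosphate carriers tested, edgeR called 0 in any comparison.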
